A study of Urocitellus parryii with 3 samples.

Results

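The muscle miRNAs miR-1-3p, miR-206-3p and miR-133a-3p were followed in small-RNA libraries of liver from Urocitellus parryii, the arctic ground squirrel, which hibernates in repeated bouts of torpor with arousals between them. A read counted as one of these miRNAs when its first 18 bases were those of the mature form, and each distinct read was counted once per stage. By this rule, 1240 of 696540 distinct reads belonged to the 3 miRNAs, which is 38426 of 17086590 placed reads. miR-1-3p held 38243 of these reads, miR-206-3p held 182 and miR-133a-3p held 1.

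Each of the 3 stages had 1 library, made from the pooled RNA of all its animals. The early arousal library pooled 4 squirrels and the late torpor library pooled 4. Both groups were hibernating animals with implanted radio transmitters, kept at 4 h light and 20 h dark, and for hibernating animals the labels give at least 4 torpor bouts and killing by decapitation on day 4 of a bout. How this day relates to the early arousal animals is not stated there. The post-reproduction library pooled 6 non-hibernating summer animals with normal body temperature, killed under isoflurane. A light cycle of 16 h light and 8 h dark at about room temperature is given for housing before hibernation. Stage therefore cannot be told apart from season, light cycle, anaesthesia, implant or pool size. With 1 library per stage, it also cannot be told apart from anything particular to that library. Sex and age are not given in the labels used here.

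miRNAs are short RNAs that guide silencing complexes to messenger RNAs, which they find mainly through the seed, bases 2 to 8. miR-1 and miR-133a are made together from shared precursors in heart and skeletal muscle, where miR-1 favours differentiation and miR-133a favours growth of muscle precursor cells in mouse studies. miR-206 belongs to the miR-1 seed family, is largely restricted to skeletal muscle and is made together with miR-133b. None of the 3 is among the miRNAs that characterise hepatocytes, for which miR-122 is the usual marker.

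The most frequent inserts in the deposited reads are shown because they decide which reads can be told apart. Capitals mark the seed.
miR-1-3p: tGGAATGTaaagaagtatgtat
miR-206-3p: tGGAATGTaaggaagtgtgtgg
miR-133a-3p: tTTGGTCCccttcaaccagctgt
miR-1-3p and miR-206-3p share their seed, and miR-133a-3p has another. Counted from 1 at the 5′ end, miR-1-3p and miR-206-3p differed by 4 substitutions, A11G, A17G, A21G and T22G. Of these, A11G and A17G lie within the 18 bases used for matching, so the pair was kept apart by 2 bases. The miR-133a-3p sequence comes from its single read. miR-133b-3p, which shares the first 18 bases, cannot be separated by the rule, although the end of this read is that of miR-133a-3p.

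The placed reads numbered 5611673 in early arousal, 5860476 in late torpor and 5614441 in post-reproduction. Reads of 134 miRNAs made up 92.1%, 94.8% and 93.4% of them, in the same order. The hepatocyte miRNA miR-122-5p was the most abundant miRNA in each library and held 78.6% of miRNA reads in early arousal, 80.4% in late torpor and 80.2% in post-reproduction. By this marker the liver label holds. Levels are given as normalised read counts (CPM), scaled to the miRNA reads of a library multiplied by a scaling factor, its TMM factor. This factor was 1.08 in early arousal, 0.922 in late torpor and 1.01 in post-reproduction. The plain share of miRNA reads, used below as an alternative, leaves it out. Intervals are exact 95% intervals that cover counting error only. They do not cover differences between animals, which pooling hides, so a ratio compares libraries and carries no p-value.

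miR-1-3p was an abundant miRNA in these livers and was higher in both hibernation libraries than in post-reproduction. It had 16985 reads in early arousal, 12493 in late torpor and 8765 in post-reproduction. Its level was 3052 CPM (3007 to 3099) in early arousal, 2437 CPM (2394 to 2480) in late torpor and 1659 CPM (1624 to 1694) in post-reproduction. The level was highest in early arousal and lowest in post-reproduction, and no neighbouring intervals overlapped. Among the listed miRNAs its abundance rank was 8 in early arousal, 12 in late torpor and 15 in post-reproduction. The list was not checked against a database, so a miRNA it misses is not ranked. Of the miRNA reads, it held 0.328% in early arousal, 0.225% in late torpor and 0.167% in post-reproduction. In bulk tissue, fewer cells of a type and less RNA per cell cannot be told apart.

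miR-206-3p, the skeletal muscle member of the same seed family, was rare and showed no detectable difference between libraries. It had 66 reads in early arousal, 56 in late torpor and 60 in post-reproduction. Its level was 11.9 CPM (9.17 to 15.1) in early arousal, 10.9 CPM (8.25 to 14.2) in late torpor and 11.4 CPM (8.67 to 14.6) in post-reproduction. All 3 intervals overlapped, so the order of these levels could not be resolved.

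miR-133a-3p was at the edge of detection. It had 0 reads in early arousal, 1 in late torpor and 0 in post-reproduction. A count of 0 allows up to 3 counts, which is 0.539 CPM in early arousal and 0.568 CPM in post-reproduction, and the exact upper limits of these zeros, drawn as bars in the plot of levels, are 0.663 CPM and 0.698 CPM. The single late torpor read gives 0.195 CPM (0.00494 to 1.09). The 3 values could not be told apart at this depth. Abundant miR-1-3p was thus not accompanied by comparable reads of miR-133a-3p, its usual partner from shared precursors.

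**Figure D1:**
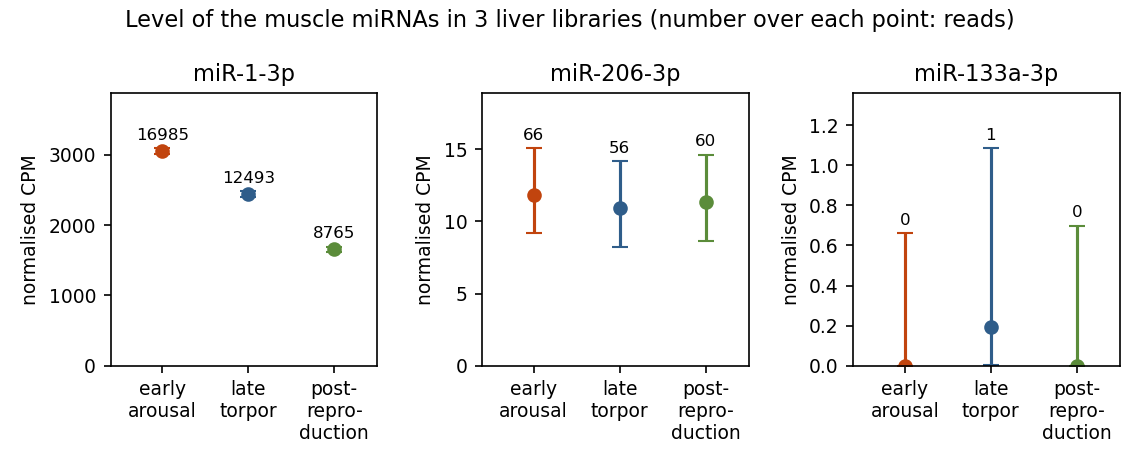
Normalised CPM of miR-1-3p, miR-206-3p and miR-133a-3p in the early arousal, late torpor and post-reproduction libraries (points, with exact 95% Poisson intervals as bars and read counts above). miR-1-3p stands at 3052, 2437 and 1659 CPM with separate intervals, whereas the intervals of the other two miRNAs overlap.

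Early arousal was first set against post-reproduction, the non-hibernating control. miR-1-3p was 1.84-fold higher in early arousal (1.79 to 1.89), a log2 ratio of 0.88. Among 80 miRNAs with at least 100 reads over both libraries, its ratio ranked 2 from the top, below that of miR-181c-5p, which had 118 reads in early arousal and 53 in post-reproduction. At least 2-fold in either direction were 5 of the 80, a background of 6.25%, and no muscle miRNA was among them. At least 1.5-fold higher were 5 of the 80, also 6.25%, and miR-1-3p was 1 of these. At 1.5-fold, 5 miRNAs were higher and 10 lower; with the plain share of miRNA reads in place of TMM factors, 8 were higher and 7 lower, and miR-1-3p was among the higher ones in both. The median log2 ratio of the 80 was -0.03 and their SD was 0.48. The ratio of miR-206-3p was 1.04 (0.725 to 1.51), an interval that includes 1 and reaches 1.5-fold.

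The comparison of late torpor used the same post-reproduction library, which both comparisons therefore share as control. miR-1-3p was 1.47-fold higher in late torpor (1.43 to 1.51), a log2 ratio of 0.55, and ranked 6 of 80. The 5 miRNAs above it were miR-451a-5p and miR-144-3p, which are red cell miRNAs, the leukocyte miRNA miR-142-5p, and miR-93-5p and miR-106b-5p of the miR-17 family. Past 2-fold in either direction was 1 of the 80, a background of 1.25%, which was not a muscle miRNA. At least 1.5-fold higher were 5 of the 80 (6.25%), and miR-1-3p lay just under this limit, with an interval that reaches across it. At 1.5-fold, 5 miRNAs were higher and 5 lower, against 3 higher and 5 lower with the plain share. The median log2 ratio of the 80 was -0.01 and their SD was 0.39. The ratio of miR-206-3p was 0.962 (0.656 to 1.41).

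Between the hibernation stages, miR-1-3p was 1.25-fold higher in early arousal than in late torpor (1.22 to 1.28), a log2 ratio of 0.32, and ranked 9 of 80. Past 2-fold in either direction were 2 of the 80, a background of 2.5%, and at least 1.5-fold higher were 5, a background of 6.25%; miR-1-3p was in neither set. At 1.5-fold, 5 miRNAs were higher and 6 lower, against 8 higher and 4 lower with the plain share. The median log2 ratio of the 80 was -0.05 and their SD was 0.42. The log2 ratio of miR-1-3p was 0.55 with the plain share, a scaling that shifted the median of all miRNAs by 0.22. The ratio of miR-206-3p was 1.09 (0.749 to 1.58).

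**Figure D2:**
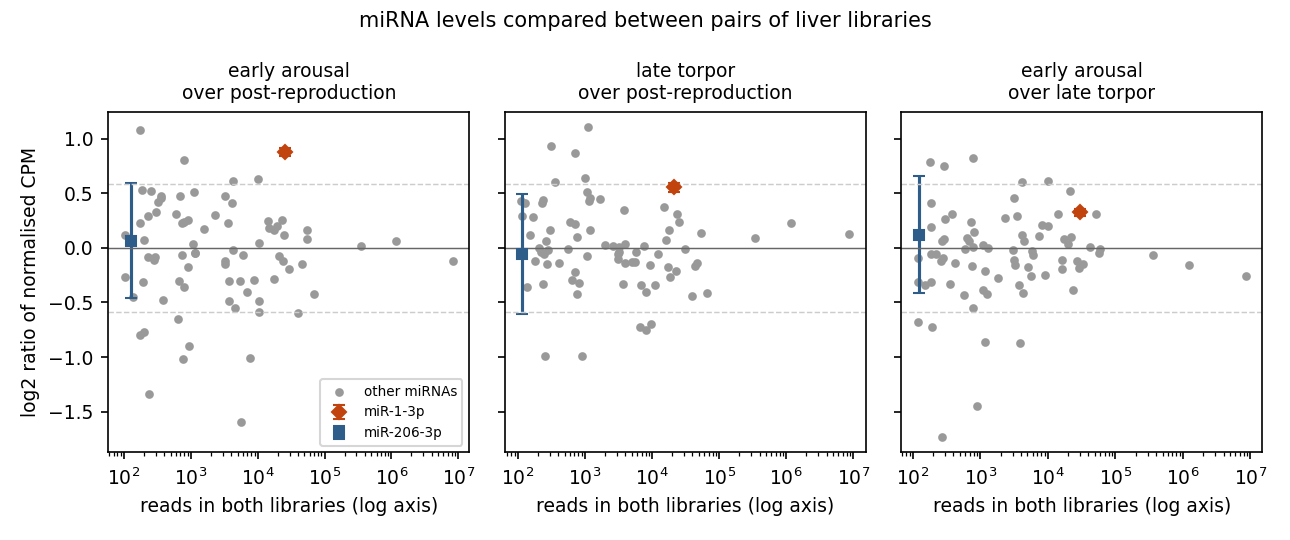
Log2 ratio of normalised CPM for each of 80 miRNAs against its reads in both libraries (log axis), for early arousal over post-reproduction, late torpor over post-reproduction and early arousal over late torpor. Bars are 95% counting intervals, dashed lines mark 1.5-fold, and miR-1-3p stands at 0.88, 0.55 and 0.32 while miR-206-3p spans 0 in each panel.

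The number of miR-1-3p reads for each miR-206-3p read compares the seed relatives inside a library and needs no scaling between libraries. It was 257 (202 to 333) in early arousal, 223 (172 to 296) in late torpor and 146 (113 to 192) in post-reproduction. The early arousal value was 1.76 times that of post-reproduction (1.22 to 2.54), and the late torpor value was 1.53 times that of post-reproduction (1.04 to 2.24). Both intervals lie above 1, so by counting error alone miR-1-3p differed between libraries more than miR-206-3p did. Early arousal against late torpor gave 1.15 (0.793 to 1.67), an interval that includes 1. The width of these intervals comes from the 56 to 66 reads of miR-206-3p.

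The other muscle miRNAs had few or no placed reads. miR-208b-3p, a cardiac and slow muscle miRNA encoded within a myosin gene, had 0 reads in early arousal, 1 in late torpor and 0 in post-reproduction. miR-208a-3p, from the cardiac alpha-myosin gene in mouse, and miR-499-5p, from another myosin gene, had 0 reads in each library. The passenger arms miR-1-5p and miR-206-5p had 0 reads in each library as well. A 0 in a table of placed reads does not show low expression. The listed sequences of miR-192-5p, miR-194-5p, miR-148a-3p, miR-22-3p and let-7g-5p, which are abundant in the liver of other mammals, also had 0 reads in each library. Of the 6 mature miRNAs in the heart and skeletal muscle list (miR-133a-3p and miR-133b-3p counted as 1), 4 were detected. Their summed level was 3064 CPM in early arousal, 2448 CPM in late torpor and 1670 CPM in post-reproduction, nearly all of it miR-1-3p. Skeletal or cardiac muscle tissue in the samples was not tested as a source of miR-1-3p.

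Marker miRNAs of other cell types are given beside miR-1-3p. miR-143-3p, a smooth muscle and fibroblast miRNA of similar abundance, had 2294 CPM in early arousal, 1599 CPM in late torpor and 1927 CPM in post-reproduction. Its log2 ratio over post-reproduction was 0.25 for early arousal and -0.27 for late torpor, so in late torpor miR-143-3p was lower than in post-reproduction while miR-1-3p was higher. miR-145-5p, made from the same transcript, had 39, 8 and 20 reads in early arousal, late torpor and post-reproduction. The third miRNA of this list, miR-199a-3p, had 2152 CPM in early arousal, 2014 CPM in late torpor and 2339 CPM in post-reproduction, so it was lower in both hibernation libraries. Together the 3 smooth muscle and fibroblast miRNAs summed to 4454 CPM in early arousal, 3615 CPM in late torpor and 4270 CPM in post-reproduction.

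The red cell miRNAs miR-451a-5p, miR-144-3p and miR-486-5p, all detected, summed to 138 CPM in early arousal, 311 CPM in late torpor and 182 CPM in post-reproduction. Their sum was highest in late torpor, whereas miR-1-3p was highest in early arousal. miR-126-3p, an endothelial miRNA, had 48, 71 and 55 reads in the 3 libraries in the same order, and both detected endothelial miRNAs summed to 31.8 CPM in early arousal, 39.0 CPM in late torpor and 29.3 CPM in post-reproduction. The 3 leukocyte miRNAs, all detected, summed to 61.6 CPM in early arousal, 91.1 CPM in late torpor and 51.3 CPM in post-reproduction. Within these lists the members went different ways. In early arousal over post-reproduction, the ratio of the red cell miRNA miR-451a-5p was 1.18 (1.03 to 1.36). Those of miR-144-3p and miR-486-5p were 0.575 (0.417 to 0.788) and 0.493 (0.422 to 0.574). The ratio of miR-126-3p in early arousal over post-reproduction was 0.829 (0.551 to 1.24), and that of miR-126-5p, the other endothelial member, was 1.22 (0.936 to 1.61), so neither interval excludes 1. The leukocyte sum was almost all miR-142-5p, with 60.4 CPM in early arousal, 88.6 CPM in late torpor and 48.6 CPM in post-reproduction, while miR-223-3p had 6, 12 and 14 reads and miR-142-3p had 1, 1 and 0 in the same order. The part of these cell types in the miR-1-3p difference was not tested.

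The miRNAs whose pair of log2 ratios to post-reproduction came nearest to that of miR-1-3p were miR-17-5p, miR-130a-3p and miR-106b-5p, among 67 miRNAs with at least 100 reads in each library. Likeness was the straight-line distance between the pairs, so it rests on 3 libraries. miR-17-5p, at a distance of 0.373, had log2 ratios of 0.52 in early arousal and 0.44 in late torpor. miR-130a-3p, also at 0.373, had 0.51 in both. miR-106b-5p, at 0.422, had 0.46 in early arousal and 0.60 in late torpor. All 3 had a lower early arousal ratio than miR-1-3p, and fewer reads.

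The positions of the reads on the genome scaffolds show which loci can have supplied them. Positions count from 1 on scaffolds whose build the sources used here do not give, and no annotation was used. Every miR-1-3p read was placed at 2 positions, on scaffold_18095 (plus strand, first base 431) and on scaffold_111918 (plus strand, first base 141305). At scaffold_18095 the placed run was longer than 18 bases for 99.2% of miR-1-3p reads and reached 27 bases, to position 457. At scaffold_111918 it was longer than 18 bases for 0.280% of the reads. The same 2 positions were used in all 3 libraries, and the first 18 bases alone do not tell them apart. Past base 18, however, nearly all reads matched scaffold_18095 and very few matched scaffold_111918.

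The longest placed runs are printed because they show the genome sequence that follows the mature ends. Capitals mark the bases past base 22.
genome at miR-1-3p, scaffold_18095: tggaatgtaaagaagtatgtatTTTTG
genome at miR-206-3p, scaffold_111894: tggaatgtaaggaagtgtgtggTTTT
In both runs a T follows base 22, and the 3′ adapter used for these libraries also starts with T. A 22-nt miR-1-3p insert with its adapter was therefore placed over 23 bases, as held for 84.0% of its reads in early arousal, 85.4% in late torpor and 82.8% in post-reproduction. The placed length is accordingly not the insert length.

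The 5′ end of miR-1-3p hardly varied. At scaffold_18095, reads starting 1 base earlier numbered 1, 2 and 0 in early arousal, late torpor and post-reproduction, reads starting 1 base later numbered 13, 12 and 5, and reads starting 2 bases later numbered 2 in each. At scaffold_111918, which few miR-1-3p reads matched past base 18, shifted starts were counted too. Reads starting 1 base earlier there numbered 19 in early arousal, 8 in late torpor and 12 in post-reproduction, and 1 post-reproduction read started 2 bases later. A shift of the start moves the seed, and each of these counts stands beside at least 8765 reads at the main start.

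All miR-206-3p reads were placed on scaffold_111894 (plus strand), from position 32794 to 32819 in the longest run. The single miR-133a-3p read was placed over 23 bases at scaffold_83940 (plus strand, 5639 to 5661) and at GeneScaffold_3685 (minus strand, 80961 to 80983). It was also placed over 21 bases at scaffold_111894 (plus strand, 36805 to 36825), the scaffold and strand that carry miR-206-3p. A further late torpor read began 1 base later at each of these positions and was not counted by the rule.

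The 5p arm of miR-133a had more reads than the 3p arm. Capitals mark the seed of its most frequent insert.
miR-133a-5p: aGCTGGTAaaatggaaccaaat
It had 1 read in early arousal, 4 in late torpor and 4 in post-reproduction, and all 9 were placed on the minus strand of GeneScaffold_3685 with their 5′ end at position 81020, beside the 3p position there. These counts are too few to order the libraries.

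Insert lengths of miR-1-3p were read from the position of the adapter, which was found in 97.5% of its reads in early arousal, 97.5% in late torpor and 96.1% in post-reproduction. The most frequent read is shown with the adapter in capitals.
miR-1-3p read: tggaatgtaaagaagtatgtatTCGTATGC
Inserts of 22 nt made up 91.7% (91.3 to 92.1) in early arousal, 91.6% (91.1 to 92.1) in late torpor and 91.9% (91.3 to 92.5) in post-reproduction. These shares overlapped, so the main length did not differ detectably while the level differed 1.84-fold. Among the 39 miRNAs for which every library gave 1000 or more inserts, the share of the main length moved by a median of -0.730 percentage points between early arousal and post-reproduction, against -0.173 points for miR-1-3p.

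Minor lengths of miR-1-3p did differ. Inserts of 23 nt made up 2.45% (2.22 to 2.69) in early arousal, 3.34% (3.03 to 3.67) in late torpor and 1.82% (1.54 to 2.12) in post-reproduction, with no overlap between the intervals. Late torpor was thus highest in this form, unlike the level, which was highest in early arousal. The form 1 nt longer than the main one was higher in early arousal than in post-reproduction in 27 of the 39 miRNAs, and in late torpor than in post-reproduction in 29 of the 39. miR-1-3p moved by 0.630 points in early arousal (rank 23) and by 1.52 points in late torpor (rank 12), so it was within the range of the others, whose medians were 0.762 and 0.918 points. Inserts of 21 nt made up 2.66%, 2.23% and 2.74% in early arousal, late torpor and post-reproduction, and those of 20 nt made up 2.80%, 2.43% and 3.17%.

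**Figure D3:**
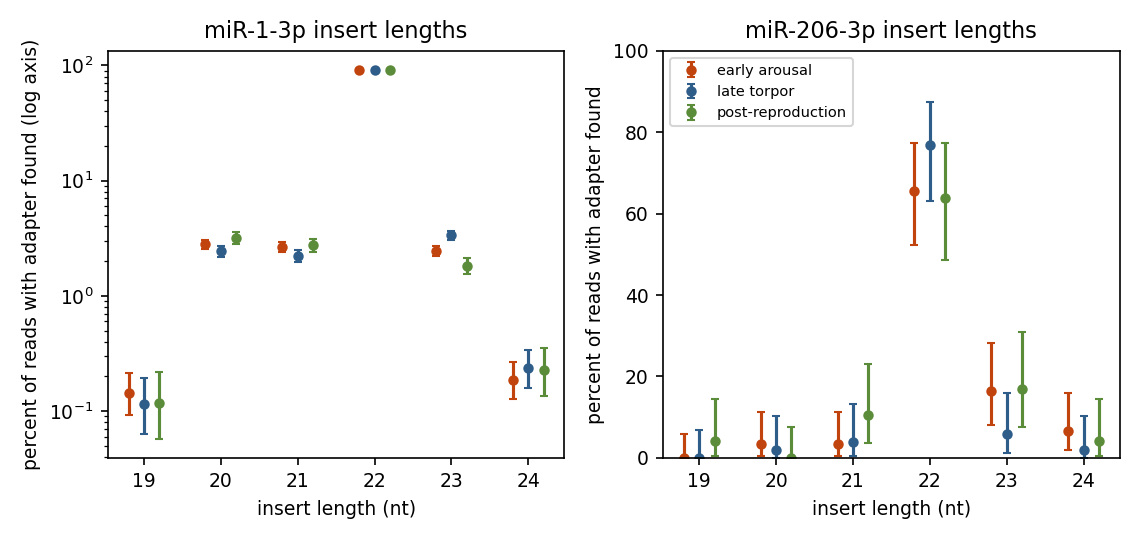
Percent of miR-1-3p reads (left, log axis) and of miR-206-3p reads (right) with each insert length in nt, among reads with the adapter found, for early arousal, late torpor and post-reproduction; bars are exact 95% binomial intervals. At 22 nt the miR-1-3p libraries coincide near 91.7%, and at 23 nt they separate as 2.45%, 3.34% and 1.82%.

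Bases at the 3′ end of miR-1-3p were tabulated next, because added A or U is a common change of mature miRNA ends. The unmodified 22-nt form made up 85.6% (85.0 to 86.1) in early arousal, 87.2% (86.6 to 87.8) in late torpor and 86.8% (86.0 to 87.5) in post-reproduction. The early arousal and late torpor intervals did not overlap, and that of post-reproduction overlapped both. Inserts of 22 nt that differed only at base 19 do not count as unmodified. Those with A there made up 0.562% in early arousal, 0.0656% in late torpor and 0.0356% in post-reproduction. Those with C there made up 0.471%, 0.0328% and 0.0356% in the same order. The unmodified share was thus lowered by such reads mostly in early arousal. The 23-nt form ending in T made up 1.41% (1.24 to 1.60) in early arousal, 2.04% (1.80 to 2.31) in late torpor and 0.938% (0.743 to 1.17) in post-reproduction, and none of these intervals overlapped. The genome has a T at that position, so a templated and an added base cannot be told apart here. The form with A after base 21 made up 2.36% (2.14 to 2.60), 2.08% (1.84 to 2.35) and 2.21% (1.90 to 2.54) in early arousal, late torpor and post-reproduction, and these overlapped. The form with A after base 22 made up 0.773% (0.645 to 0.918), 0.936% (0.772 to 1.12) and 0.629% (0.472 to 0.822) in the same order, and these overlapped too. The form with C after base 21 made up 0.930% (0.790 to 1.09) in early arousal, 0.870% (0.713 to 1.05) in late torpor and 1.53% (1.28 to 1.82) in post-reproduction, so it was lower in both hibernation libraries. The form with TT after base 20 made up 0.864% (0.728 to 1.02) in early arousal, 0.345% (0.249 to 0.466) in late torpor and 0.451% (0.319 to 0.619) in post-reproduction. Its early arousal interval lay above the others, which overlapped. This form equals a 22-nt insert with T for A at base 21, so added and changed bases cannot be told apart.

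The share of bases unlike the most frequent read also differed between libraries, in the insert end and in the adapter. In 22-nt miR-1-3p reads, base 19 differed from the most frequent read in 1.41% in early arousal, 0.251% in late torpor and 0.207% in post-reproduction. Over 36 abundant miRNAs, base 19 was compared with the listed base in reads of any insert length. The median was 1.91%, 0.568% and 0.561% in the same order, and miR-1-3p counted this way had 1.48%, 0.344% and 0.285%. Of the 36, 35 were higher in early arousal than in both other libraries. In the 22-nt miR-1-3p reads, the first adapter base, read position 23, differed in 0.356% in early arousal, 0.959% in late torpor and 0.0775% in post-reproduction. Further into the adapter, bases 24, 25 and 29 differed in 0.948%, 0.540% and 0.816% in early arousal, in 0.421%, 0.349% and 0.771% in late torpor, and in 3.95%, 3.69% and 4.29% in post-reproduction. An exact adapter was accordingly found in 91.8% of miR-1-3p reads in early arousal, 92.2% in late torpor and 80.0% in post-reproduction. The miR-1-3p shares by read position come from reads called 22 nt, so they count no read of the 23-nt form. Several are of the size of the minor end forms. Beyond the base 19 forms given above, the part of such base differences in the end forms was not tested. With the adapter required to be exact, the 23-nt share was 2.51%, 3.40% and 1.90% in early arousal, late torpor and post-reproduction.

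**Figure D4:**
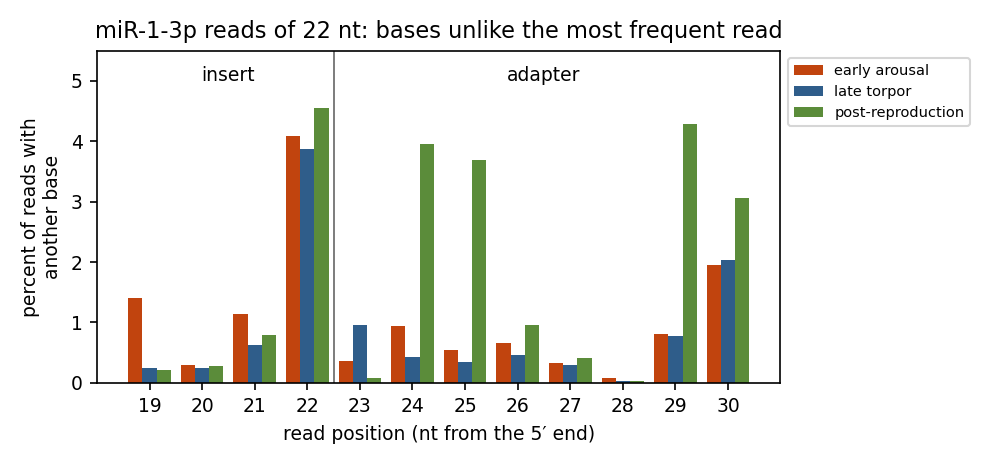
Percent of 22-nt miR-1-3p reads whose base differs from that of the most frequent read, at each read position from 19 to 30, for early arousal, late torpor and post-reproduction (bars from 0; the line separates insert and adapter). Early arousal stands out at position 19 with 1.41%, and post-reproduction at positions 24, 25 and 29 with 3.95%, 3.69% and 4.29%.

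The miR-206-3p ends had too few reads for such detail. Inserts of 22 nt made up 65.6% (52.3 to 77.3) of 61 inserts in early arousal, 76.9% (63.2 to 87.5) of 52 in late torpor and 63.8% (48.5 to 77.3) of 47 in post-reproduction, and the intervals overlapped. In each library its 22-nt share lay below the interval of miR-1-3p, so the ends of miR-206-3p were more varied than those of miR-1-3p. The read of miR-133a-3p had an insert of 23 nt.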

How the data were processed

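The authors deposited 1 table of genome positions for the 3 Illumina libraries. An entry gives a read with its whole-number count and stage, per the file headers, and these raw counts were used as deposited. Per the labels' protocols, RNA of the 14 animals was pooled in equal amounts by stage, about 10 µg was run on a gel, 18 to 30 nt were cut out, and adapters were followed by 15 PCR cycles. The sources used here do not give the aligner, build or filters. Reads have 30 bases, of which at least 18 leading bases were placed. Unplaced reads were not used here. A read placed several times carries 1 count everywhere (no conflict in 4218154 entries).

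Members were recognised by 9-base keys, and their sequences were taken from the most frequent reads. The other 131 miRNA sequences were written from general knowledge and not checked against a database; sequences sharing 18 bases were merged, which left 129 features, 102 with reads. Members, lists and limits were chosen with earlier results of these data known. The text names the members, the other muscle miRNAs, 7 markers of other cell types and the 3 nearest patterns. miRNAs ranked above miR-1-3p, those with higher near-match shares, other list members and the liver miRNAs at 0 were named after their values were seen. TMM factors (30% and 5% trimmed; 1.08 in early arousal, 0.922 in late torpor, 1.01 in post-reproduction) came from own code, since counts sit inside text entries. Levels have exact Poisson intervals, ratios conditional binomial and shares Clopper-Pearson intervals, all 95%. Without molecular identifiers, these intervals and the floors of 3 counts cover counting error only. Inserts of 18 to 26 nt were read from the adapter, with 1 mismatch allowed per 5 bases. The code was tested on simulated data. Python 3.11.15, numpy 2.4.6, scipy 1.17.1, pandas 2.3.3 and matplotlib 3.10.9 were used.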

Additional observations from a re-analysis of the deposited data

Results flagged for a closer look

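Reads that start like miR-1-3p but carry other bases within the first 18 were outside the comparisons above, and a pair of such sequences was higher in early arousal than in the post-reproduction control. They are shown with the differing bases in capitals.
A14T near match: tggaatgtaaagaTgtatgtat
A14T and T16G near match: tggaatgtaaagaTgGatgtat
Substitutions give the base of miR-1-3p first. The A14T reads numbered 666 in early arousal, 300 in late torpor and 111 in post-reproduction and were placed on GeneScaffold_4575 (minus strand). That is 3.92, 2.40 and 1.27 per 100 miR-1-3p reads. The reads with A14T and T16G numbered 551, 252 and 97 in early arousal, late torpor and post-reproduction and were placed on GeneScaffold_3529 (minus strand), which is 3.24, 2.02 and 1.11 per 100. The next bases equalled bases 19 to 22 of miR-1-3p in 66.0% of the A14T reads and in 50.4% of the others. All starts with 1 mismatch came to 4.80 per 100 miR-1-3p reads in early arousal, 3.09 in late torpor and 1.89 in post-reproduction. Over 26 miRNAs with at least 10000 reads, the median was 0.636, 0.476 and 0.523 per 100. miR-140-3p, with 9.32, 7.11 and 5.36, and miR-378a-3p, with 5.55, 4.83 and 4.07, lay above miR-1-3p in each library. Only placed reads were counted, which limits the changed starts that can be seen. For 23 of the 26, the others having no such reads, the share in early arousal was divided by that in post-reproduction. miR-1-3p had the highest of these 23 ratios, 2.54, against a median of 1.42. The source of these reads was not tested.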

How the results depend on the processing

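miR-1-3p kept its direction in all 24 alternative values, but 15 of them lay outside its narrow counting interval. miR-206-3p stayed inside its interval in all 27, which its few reads make wide. As log2 ratios of early arousal over post-reproduction, late torpor over post-reproduction and early arousal over late torpor, miR-1-3p had 0.97, 0.43 and 0.55 with the plain share of miRNA reads, 0.96, 0.45 and 0.51 with the share of all placed reads, and 1.01, 0.64 and 0.37 with identical inserts only. Median-of-ratios scaling moved the first to 0.92 and the third to 0.37; accepting 1 mismatch moved the second to 0.60 and the third to 0.27; dropping distinct reads seen once moved the first to 0.83 and the second to 0.49. Identical inserts thus put miR-1-3p past 2-fold in the first comparison, and they or 1 mismatch past 1.5-fold in the second; the cause was not tested. The plain share moved the median of all miRNAs by 0.10, -0.13 and 0.22, and the share of placed reads by 0.08, -0.11 and 0.18.

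Counts past 2-fold, 5, 1 and 2, were 3, 2 and 4 with the plain share (1 higher and 2 lower, 0 and 2, 2 and 2, against 1 and 4, 1 and 0, 0 and 2), 3 in the first with median-of-ratios scaling (1 higher and 2 lower), and 7, 2 and 3 with a minimum of 20 reads, which tests more miRNAs. With the share of placed reads, 1 was higher and 2 lower in each comparison with post-reproduction, and 0 and 2 between the hibernation stages. The 22-nt share of miR-1-3p in post-reproduction was 92.5% without distinct reads seen once. Requiring 20 placed bases, added after seeing the data, moved no value out of its interval. With reads placed at 1 position only, no read of miR-1-3p or miR-133a-3p was left. miR-133a-3p had 1 read, and none without distinct reads seen once. No paired analysis was possible because each stage has 1 library. Depth limits miR-206-3p and miR-133a-3p, and nothing here measures the spread between animals.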
